A study of Mus musculus with 6 samples.

Results

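A set of 10 genes of apelin and adrenomedullin signalling and of sprouting endothelium was followed in endothelial cells sorted from mouse embryos. These are the ligand genes Apln and Adm, the receptor genes Aplnr and Calcrl, the receptor partner genes Ramp1, Ramp2 and Ramp3, and the tip cell genes Esm1, Kcne3 and Plaur. All 10 were picked by name and found among the 23420 genes of the count table. Both groups came from E12.5 embryos (12.5 days of gestation) with the transgene Csf1r-iCre, a Cre recombinase under the promoter of the myeloid gene Csf1r, and RosatdTomato, a reporter that makes cells red after recombination. The tdTom+ cells had thus expressed the recombinase or descended from cells that had, and the tdTom- cells of the same genotype had not been labelled. The sorted cells were PECAM1+, CD45-, CD11b- and KIT-, a gate set on surface proteins, with 3 libraries per group and 3 embryos named in the protocol.

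Apelin, made from Apln, binds the G protein-coupled receptor encoded by Aplnr, which is typical of venous and sprouting endothelium. Adrenomedullin, made from Adm, needs a receptor of a pair of proteins: Calcrl encodes the receptor itself, and a RAMP protein carries it to the cell surface and sets its ligand. With RAMP2 or RAMP3 it binds adrenomedullin, and with RAMP1 it binds calcitonin gene-related peptide. Tip cells lead a growing sprout, and Apln, Adm, Esm1, Kcne3 and Plaur are among the genes used to mark them, while Aplnr is used for the cells that follow.

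Both ligand genes are known targets of hypoxia signalling, so the 250 bases before their annotated starts are shown (RefSeq, GRCm38.p6). Capitals mark matches to the hypoxia response core, searched as ACGTG and GCGTG on both strands, where CACGC is GCGTG read on the other strand. The Adm window is chr7:110627407-110627656 on the + strand, and the Apln window is chrX:48034854-48035103 on the - strand.
Adm: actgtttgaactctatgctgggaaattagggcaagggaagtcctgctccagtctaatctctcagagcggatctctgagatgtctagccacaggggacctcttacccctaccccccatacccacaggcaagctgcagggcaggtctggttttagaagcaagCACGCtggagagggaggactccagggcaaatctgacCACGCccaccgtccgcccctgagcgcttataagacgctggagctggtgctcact
Apln: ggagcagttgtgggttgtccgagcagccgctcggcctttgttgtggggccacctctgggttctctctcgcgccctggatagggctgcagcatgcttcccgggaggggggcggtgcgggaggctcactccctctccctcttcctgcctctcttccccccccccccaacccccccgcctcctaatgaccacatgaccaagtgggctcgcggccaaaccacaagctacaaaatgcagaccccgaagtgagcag
The Adm window held 2 matches, at 90 and 54 bases before the start, and the Apln window held 0. Of the 8 members with a window in the table, 4 held a match (Adm, Esm1, Kcne3 and Ramp3). Counted by windows, since Kcne3 has 2, these were 4 of 9 or 44.4%, close to the 38.6% of all 32851 windows of that length. A match is a run of letters only.

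The libraries held 8919887 to 11767956 counts each. The 10 core endothelial genes summed to 7467 to 8039 CPM (counts scaled to library size and by the trimmed mean of M-values, TMM) in tdTom+ and to 7535 to 7720 CPM in tdTom- libraries, and 0 of them passed the test. Counts of Ptprc, the CD45 gene, reached 4 among tdTom+ libraries and 22 among tdTom- libraries. Transcripts of Kit, whose protein the gate selected against, were not low: they averaged 86.6 ± 5.99 CPM for tdTom+ against 119 ± 6.09 CPM for tdTom- (SD, n = 3; edgeR adjusted p = 0.0581). Both libraries numbered 3 held Xist, with 1224 counts in tdTom+ and 571 in tdTom-, against at most 8 in the others. In these sorted bulk samples, fewer cells of a kind and less RNA per cell cannot be told apart.

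None of the members differed between tdTom+ and tdTom- cells at the threshold. Of the 10 members, 9 had enough counts to test, and 0 passed (adjusted p under 0.05 over 13142 genes, by the quasi-likelihood test of edgeR with the Benjamini-Hochberg method), where 1.58% of all tested genes did (0.769% higher and 0.814% lower in tdTom+). At an unadjusted p under 0.05 the count was 1 of 9 members, Kcne3, against 10.7% of all tested genes. DESeq2 and limma-voom also called 0 members. The groups did not overlap for 1 of the 9, again Kcne3, against 17.2% of all tested genes. Both counts of 1 in 9 are close to the share over all genes, and nothing is read from them. The median log2 fold change was -0.02 over the tested members and 0.00 over all tested genes, and the median size regardless of sign was 0.09 and 0.16. The 95% intervals of the tested members all lay between 0.690-fold and 1.49-fold (tdTom+ over tdTom-), so a change of 2-fold lay outside each of them. These intervals are per gene, without adjustment for their number.

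**Figure D1:**
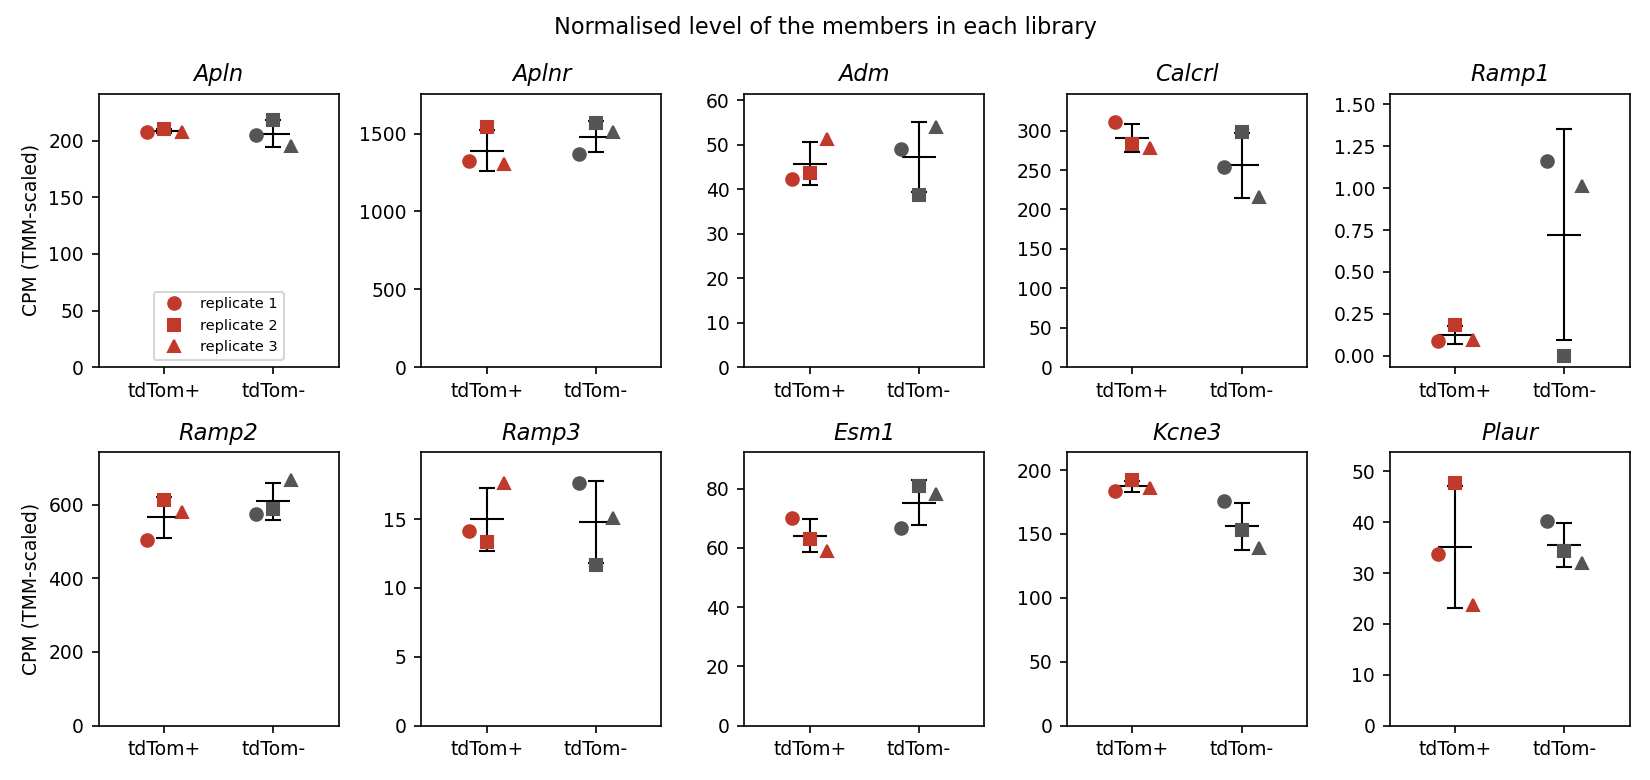
Level of each member in CPM (TMM-scaled, vertical axes) in the tdTom+ (left, red) and tdTom- (right, grey) libraries; the symbol gives the replicate number, the horizontal mark the mean and the whisker the SD (n = 3). The Kcne3 values of the tdTom+ libraries, 183 to 192 CPM, all lie above those of the tdTom- libraries, 139 to 176 CPM, while the groups overlap for the other 9 members.

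The apelin ligand and its receptor were abundant in both fractions. Apln (chromosome X, 48025146 to 48034853, mm10) had 2368, 2300 and 2222 counts in tdTom+ replicates 1 to 3 and 2115, 2583 and 1745 counts in tdTom- replicates 1 to 3. Scaled for depth, these were 207, 210.3 and 208 CPM in tdTom+ and 205, 218 and 195 CPM in tdTom- libraries. The tdTom+ values all lay inside the tdTom- range. The log2 fold change was 0.02 ± 0.08 (SE; adjusted p in edgeR, 0.977), with a 95% interval of 0.898 to 1.14-fold. Apln is X-linked, and its level in the Xist-positive libraries, 208 CPM in tdTom+ and 195 CPM in tdTom-, lay among the others in tdTom+ and below both others in tdTom-.

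Aplnr (chromosome 2, 85136225 to 85139923), the apelin receptor gene, had 1322, 1545 and 1306 CPM in tdTom+ and 1369, 1566 and 1507 CPM in tdTom- libraries. The groups overlapped over most of their range. The log2 fold change of -0.09 ± 0.08 did not pass (SE; adjusted p in edgeR, 0.775), and its interval ran from 0.833 to 1.06-fold. Of the other apelin genes, 10 could be tested and 1 rose, where 0.769% of all tested genes did. This was Arrb2, the gene of a beta-arrestin that binds activated receptors. It had 61.0 ± 6.35 CPM in the tdTom+ fraction against 29.6 ± 3.70 CPM in the tdTom- fraction (SD, n = 3), which on the log2 scale is 1.04 ± 0.15 (SE, adjusted p = 0.00754 in edgeR). It was no longer called once tdTom- replicate 2 or 3 was left out (adjusted p = 0.0543 and 0.0661). Apela, the gene of the other apelin receptor ligand, had 7, 0 and 0 counts in the tdTom+ fraction against 18, 2 and 2 in the tdTom- fraction, too few to test.

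Adm, the adrenomedullin gene (chromosome 7, 110627661 to 110629820), whose promoter letters are shown above, had 42.3, 43.6 and 51.2 CPM in tdTom+ and 49.1, 38.7 and 54.0 CPM in tdTom- libraries. The tdTom- values enclosed all of the tdTom+ values. Its log2 fold change was -0.05 ± 0.16 (SE; adjusted p in edgeR, 0.96), with an interval of 0.754 to 1.24-fold. An antisense gene overlaps Adm in the annotation, and another overlaps Kcne3, and the library kit does not mark strand, so reads of the partners cannot be told apart.

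Calcrl (chromosome 2, 84330626 to 84425411), the adrenomedullin receptor gene, had 311, 282 and 278 CPM in tdTom+ and 254, 298 and 216 CPM in tdTom- libraries. The tdTom- values of replicates 1 and 3 lay below every tdTom+ value, and that of replicate 2 lay among them. The log2 fold change of 0.18 ± 0.11 did not pass (SE; adjusted p in edgeR, 0.645), with an interval of 0.958 to 1.34-fold. Without tdTom- replicate 2 it was 0.30 (adjusted p = 0.359), and without tdTom- replicate 3 it was 0.07 (adjusted p = 0.942).

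Ramp2 was the main RAMP gene in every library. It had 503, 613 and 579 CPM in tdTom+ and 574, 588 and 667 CPM in tdTom- libraries, and the groups overlapped (log2 fold change -0.11 ± 0.09, SE, edgeR adjusted p = 0.754, interval 0.810 to 1.06-fold). Ramp2 (chromosome 11, 101246028 to 101259546) overlaps Vps25 on the same strand, so that its counts are uncertain where reads are shared. Ramp3 (chromosome 11, 6658521 to 6677475) had 14.1, 13.3 and 17.6 CPM in tdTom+ and 17.6, 11.7 and 15.1 CPM in tdTom- libraries. Its interval was the widest, 0.691 to 1.49-fold, around a log2 fold change of 0.02 ± 0.25 (SE; adjusted p in edgeR, 0.991).

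Ramp1 (chromosome 1, 91179822 to 91225196) had 1, 2 and 1 counts in the tdTom+ fraction against 12, 0 and 9 in the tdTom- fraction. It was at or under the floor of 3 counts in every tdTom+ library and in tdTom- replicate 2, and it was not tested. Markers of the mesenchyme and mural list, 0 of 12 at 0 in either group, summed to 270, 176 and 706 CPM in tdTom+ and to 1235, 518 and 706 CPM in tdTom- replicates 1 to 3. Their part in the few Ramp1 counts was not tested.

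Per length of transcript, Ramp2 took most of the RAMP level in both fractions. Ramp2 made up 97.4%, 98.0% and 97.2% of the summed RAMP level in tdTom+ and 97.0%, 98.1% and 97.8% in tdTom- libraries. Ramp3 made up 2.02% to 2.83% in tdTom+ and 1.86% to 2.85% in tdTom- libraries. These shares depend on the length taken for Ramp2: with that of all annotated exons, an alternative chosen after seeing the data, Ramp3 made up 4.91% to 6.80% of the RAMP level for tdTom+ against 4.53% to 6.84% for tdTom-. The level of Calcrl relative to Ramp2, as a log2 ratio per length within a library, was -2.75, -3.17 and -3.11 in tdTom+ and -3.23, -3.03 and -3.68 in tdTom- libraries. With the length of all annotated exons it was -1.68 to -1.26 in tdTom+ and -2.19 to -1.54 in tdTom- libraries. By either length, Calcrl was lower than Ramp2 in all 6 libraries. The mean ratio was higher by 0.30 in tdTom+, and the groups overlapped (two-sided exact permutation test, p = 0.4, 0.75 adjusted over 3 ratios). Relative to Ramp3 and to Adm the ratio of Calcrl was 0.16 and 0.23 above that in tdTom- libraries and did not pass (exact permutation p = 0.8 and 0.5, adjusted 0.8 and 0.75). The smallest p that 3 against 3 libraries can give is 0.1.

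Other genes of the calcitonin peptide family were sparse. Adm2, Calcb, Iapp and Calcr had too few counts to test, and Calcr, the calcitonin receptor gene, had 0 counts in the tdTom+ fraction against 3, 3 and 6 in the tdTom- fraction. Of the 6 genes tested, 1 rose, where 0.769% of all tested genes did. This was Gpr182, which encodes a receptor once proposed to bind adrenomedullin. It had 262 ± 18.0 CPM in the tdTom+ fraction against 112 ± 15.0 CPM in the tdTom- fraction (SD, n = 3), which on the log2 scale is 1.22 ± 0.11 (SE, adjusted p = 0.000377 in edgeR). Of 10 liver sinusoidal markers, Gpr182 among them, 8 could be tested and 7 rose. The sum of all 10 was 2398 to 2778 CPM in tdTom+ and 964 to 1072 CPM in tdTom- libraries, with Cd209a at 0 throughout. Lymphatic markers, which share Lyve1 with that list, summed to 1630 to 1852 CPM in tdTom+ and 1077 to 1165 CPM in tdTom- libraries. Of these, 2 of 6 tested rose, with Ccl21a at 0 throughout. Venous markers summed to 1161.9 to 1169.5 CPM in tdTom+ and 945 to 989 CPM in tdTom- libraries, and 1 of 6 tested rose. The part of these vessel types in the Gpr182 difference was not tested. Ackr3, which encodes a scavenger receptor reported to bind adrenomedullin, had 38.3 ± 3.43 CPM in the tdTom+ fraction against 60.4 ± 13.2 CPM in the tdTom- fraction (SD, n = 3) and did not pass (edgeR adjusted p = 0.122).

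Adrenomedullin receptors act through Gs, adenylyl cyclase and cAMP. Of 17 tested genes of that pathway, 1 rose, against 0.769% of all tested genes, and the list's median log2 fold change was -0.06. The 1 that rose was Prkar2b, which encodes a regulatory subunit of protein kinase A. Prkar2b had 74.1 ± 13.6 CPM in the tdTom+ fraction against 36.0 ± 0.717 CPM in the tdTom- fraction (SD, n = 3), which on the log2 scale is 1.04 ± 0.15 (SE, adjusted p = 0.00741 in edgeR). Leaving out tdTom- replicate 2 or 3 ended this call (adjusted p = 0.0515 and 0.0682). Beside Prkar2b and Arrb2, 5 of 9 megakaryocyte and platelet markers rose, and their sum was 217 to 418 CPM in tdTom+ and 23.7 to 39.1 CPM in tdTom- libraries, with none at 0. Of 12 macrophage and myeloid markers, which share Mrc1 with the liver sinusoidal list, 7 could be tested and 1 rose. The sum of all 12 was 86.5 to 146 CPM for tdTom+ against 42.4 to 56.1 CPM for tdTom-, also with none at 0. The part of either cell type in both differences was not tested. Of 9 other receptors reported to bind RAMPs, 3 could be tested and 0 passed. The smallest p among them belonged to Pth1r, the parathyroid hormone receptor gene, at -0.44 ± 0.45 in log2 fold change (SE; adjusted p in edgeR, 0.819), followed by Vipr2 with -0.91 ± 1.07 (adjusted p = 0.858).

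**Figure D2:**
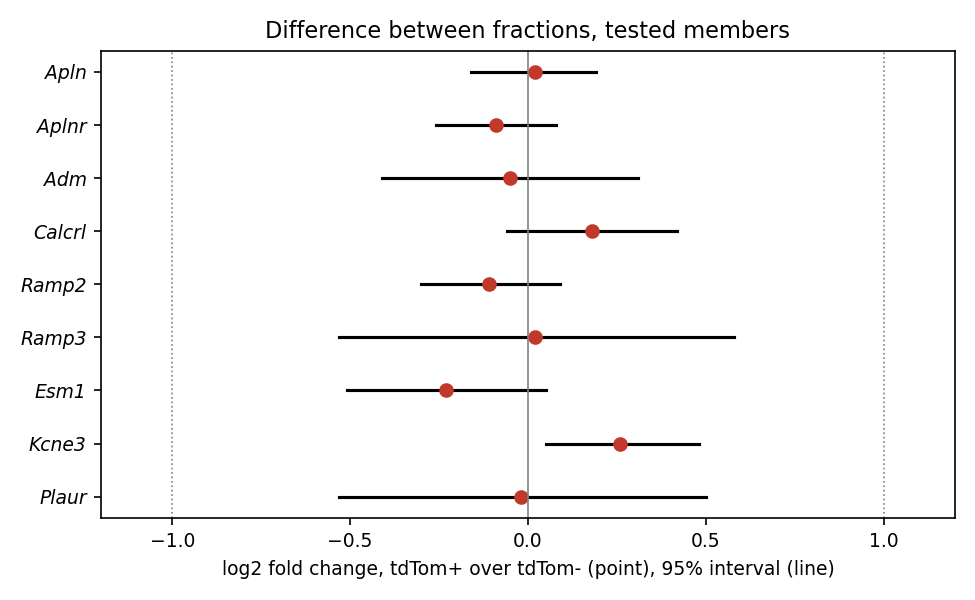
Log2 fold change of the 9 tested members, tdTom+ over tdTom- (point), with its 95% interval (line) from the edgeR fit; dotted lines mark 2-fold. Every interval lies inside the dotted lines, and that of Kcne3, from 0.05 to 0.48, is the one that leaves out 0.

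Kcne3 came nearest to a difference. It encodes a small beta subunit of potassium channels and lies on chromosome 7, 100176502 to 100184869. It had 2094, 2099 and 1993 counts in the tdTom+ fraction against 1812, 1810 and 1243 in the tdTom- fraction, or 183, 192 and 186 CPM in tdTom+ against 176, 153 and 139 CPM in tdTom-. Every tdTom+ value was above every tdTom- value. The log2 fold change was 0.26 ± 0.10 (SE), with an interval of 1.03 to 1.39-fold, and it did not pass after adjustment (edgeR adjusted p = 0.312). Across the alternatives the adjusted p ran from 0.233 to 0.721. The authors' deposited table gives a log2 fold change of -0.263 in the direction tdTom- over tdTom+, with an adjusted p of 0.248. Of the related KCNE genes and potassium channel genes, 5 of 11 could be tested and 0 passed, with Kcnj2 at a log2 fold change of -0.33 ± 0.20 and Kcnq5 at 1.85 ± 1.16 (SE; adjusted p in edgeR, 0.646 and 0.655).

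Esm1, which encodes endocan, a secreted proteoglycan of tip cells (chromosome 13, 113209659 to 113218098), had 70.1, 63.0 and 59.1 CPM in tdTom+ and 66.7, 80.8 and 78.2 CPM in tdTom- libraries. The value of tdTom- replicate 1 lay among the tdTom+ values, and the other two lay above them. The log2 fold change of -0.23 ± 0.13 did not pass (SE; adjusted p in edgeR, 0.584), with an interval of 0.701 to 1.03-fold. Kcne3 and Esm1 thus had estimates on opposite sides of 0, and neither passed.

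Plaur encodes the urokinase receptor, which binds the protease that activates plasminogen at the cell surface (chromosome 7, 24462484 to 24475968). It had 33.8, 47.7 and 23.8 CPM in tdTom+ and 40.3, 34.4 and 31.9 CPM in tdTom- libraries. The tdTom+ libraries held both the highest and the lowest value. Its coefficient of variation in tdTom+ was 34.2%, the largest among the 9 tested members, and the log2 fold change was -0.02 ± 0.23 (SE; adjusted p in edgeR, 0.993, interval 0.690 to 1.42-fold). Of the 11 tested genes of plasminogen activation, 1 fell, against 0.814% of all tested genes, and the list's median log2 fold change was -0.54. The 1 that fell was Plat, the gene of tissue plasminogen activator. Plat averaged 49.3 ± 7.80 CPM in the tdTom+ fraction against 83.2 ± 9.18 CPM in the tdTom- fraction (SD, n = 3), which on the log2 scale is -0.75 ± 0.15 (SE, adjusted p = 0.0302 in edgeR). That call held without tdTom+ replicate 2, and was lost on leaving out each of the other 5 libraries, with an adjusted p of 0.0693 to 0.192. Plau, the urokinase gene, had a log2 fold change of 0.05 ± 0.33 and did not pass (SE; adjusted p in edgeR, 0.981).

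**Figure D3:**
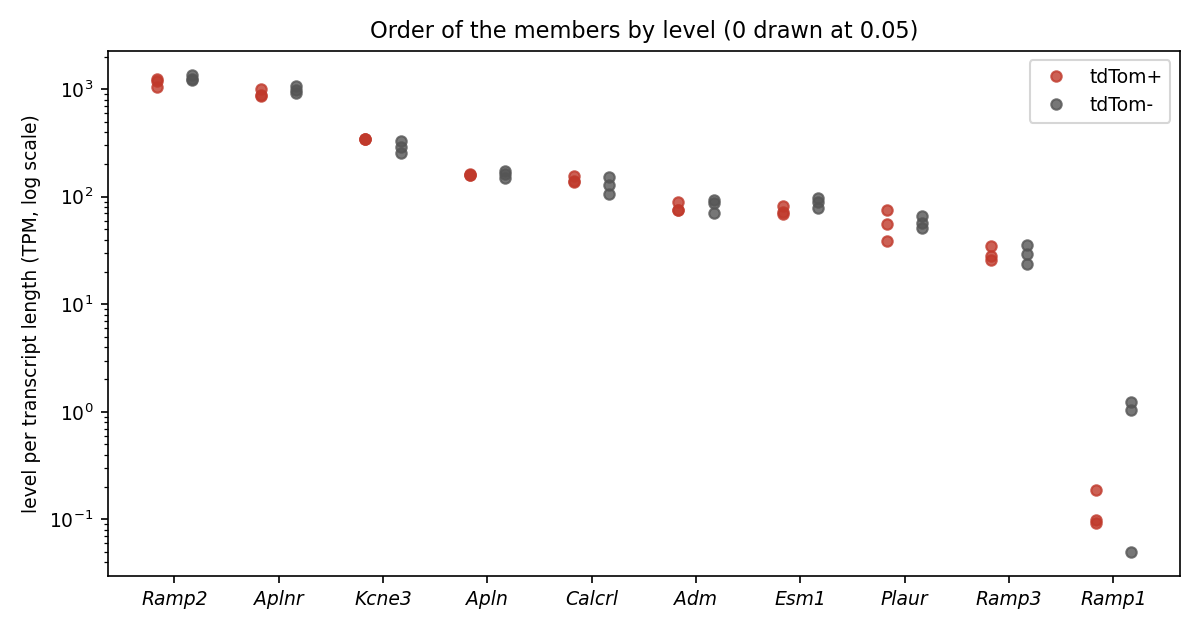
Level of each member per transcript length (TPM, log axis) in the tdTom+ (left, red) and tdTom- (right, grey) libraries, ordered by the mean; a value of 0 is drawn at 0.05. Ramp2 and Aplnr lead at 860.0 to 1364 and Ramp1 is lowest at no more than 1.24.

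The order of the members by level was nearly the same in both fractions. Per length of the longest protein-coding transcript, Ramp2 stood at 1163 ± 97.6 TPM (counts scaled to length and to library size) in tdTom+ and 1274 ± 82.2 TPM in tdTom- cells (SD, n = 3). Aplnr followed at 912 ± 72.1 TPM in tdTom+ and 987 ± 73.1 TPM in tdTom- cells (SD, n = 3). Their ranges over the 6 libraries overlapped, and with the length of all annotated exons, an alternative chosen after seeing the data, Aplnr was the higher at 1330.4 TPM in tdTom+ and 1437 TPM in tdTom- cells, with Ramp2 at 606 TPM in tdTom+ and 662 TPM in tdTom- cells. Next came Kcne3 at 343 ± 1.72 TPM in tdTom+ and 290.5 ± 37.5 TPM in tdTom- cells, then Apln at 161 ± 1.81 TPM in tdTom+ and 161 ± 12.3 TPM in tdTom- cells (SD, n = 3). Calcrl stood at 144 ± 10.9 TPM in tdTom+ and 129 ± 23.3 TPM in tdTom- cells (SD, n = 3).

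Apln and Calcrl overlapped over the libraries, while Kcne3 lay above both. Adm stood at 79.8 ± 8.51 TPM in tdTom+ and 83.6 ± 12.3 TPM in tdTom- cells, and Esm1 at 74.2 ± 7.30 TPM in tdTom+ and 88.4 ± 9.05 TPM in tdTom- cells (SD, n = 3). These overlapped each other, and both also overlapped Plaur, at 56.5 ± 18.5 TPM in tdTom+ and 58.2 ± 7.64 TPM in tdTom- cells. Adm and Esm1 changed places between the fractions, within their spread. Ramp3 at 29.6 ± 4.77 TPM in tdTom+ and 29.5 ± 5.82 TPM in tdTom- cells and Ramp1 at no more than 1.24 TPM were the lowest.

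Most of the other genes used to mark tip cells did not pass either. Of 36 tested, 0 rose, 2 fell and 34 did not pass, and the list's median log2 fold change was -0.09, against 0.00 over all tested genes, of which 0.814% fell. Pdgfb, the gene of a growth factor that draws in mural cells, had 66.6 ± 4.25 CPM in the tdTom+ fraction against 99.9 ± 10.1 CPM in the tdTom- fraction (SD, n = 3), which on the log2 scale is -0.58 ± 0.12 (SE, adjusted p = 0.0366 in edgeR). Its call ended without any 1 of the 6 libraries (adjusted p from 0.0503 to 0.173). Cd34, the gene of a sialomucin of endothelium and blood progenitors, had 1039 ± 61.0 CPM in the tdTom+ fraction against 1322 ± 54.6 CPM in the tdTom- fraction (SD, n = 3). On the log2 scale this was -0.35 ± 0.06 (SE, adjusted p = 0.0254 in edgeR). It too stayed called without tdTom+ replicate 2 and was lost without each of the other 5 libraries, at an adjusted p of 0.0635 to 0.121.

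Among the best known tip cell genes, Dll4, Angpt2 and Cxcr4 did not pass. Dll4, a Notch ligand gene, had 190.3 ± 7.26 CPM in the tdTom+ fraction against 193 ± 19.7 CPM in the tdTom- fraction (SD, n = 3). Angpt2, the gene of a ligand of the TIE2 receptor, had 40.7 ± 14.9 CPM in the tdTom+ fraction against 29.9 ± 5.90 CPM in the tdTom- fraction (SD, n = 3). Cxcr4, a chemokine receptor gene, had a log2 fold change of -0.19 ± 0.31 (SE). Their edgeR adjusted p-values were 0.966, 0.612 and 0.902. Of 9 stalk cell genes, 0 rose and 1 fell, where 0.814% of all tested genes fell. This was the Notch ligand gene Jag1, with 34.9 ± 2.88 CPM in the tdTom+ fraction against 71.1 ± 5.37 CPM in the tdTom- fraction (SD, n = 3, edgeR adjusted p = 0.00435).

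Beside these falls, the sums of 10 arterial markers were 1336 to 1495 CPM in tdTom+ and 1568 to 1741 CPM in tdTom- libraries. Of these markers, 1 of 10 passed. The arterial list shares Dll4, Unc5b and Cxcr4 with the tip cell genes and Hey1 with the stalk cell genes. The sums of 10 brain endothelial markers were 1055 to 1186 CPM in tdTom+ and 1505 to 1585 CPM in tdTom- libraries. Of 9 tested, 4 passed, where 0.814% of all tested genes fell. Slc2a1 is 1 of these 4 and part of the sum, at 703 ± 31.4 CPM in tdTom+ and 916 ± 49.3 CPM in tdTom- (SD, n = 3). The sum is thus not separate from its fall. None of either list was at 0. The part of these vessel types in the falls of Pdgfb, Cd34, Plat, Jag1 and Slc2a1 was not tested.

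**Figure D4:**
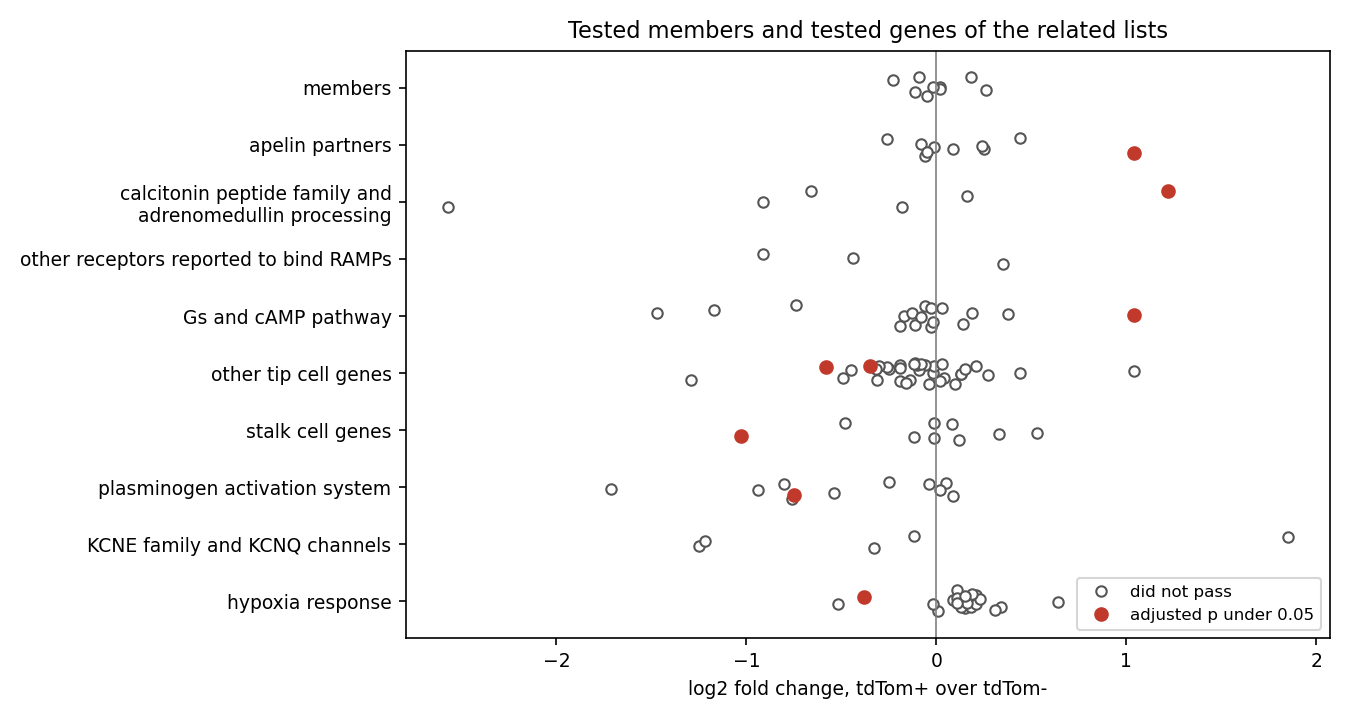
Log2 fold change, tdTom+ over tdTom- (horizontal axis), of each tested member (top row) and each tested gene of the related lists (1 row per list, points spread vertically for legibility); filled points passed at an adjusted p under 0.05. The members lie between -0.23 and 0.26, and 8 genes of the lists are filled.

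Genes of the hypoxia response, to which Apln and Adm belong, gave 1 fall and 0 rises at the threshold among 20 tested. Over all tested genes, 0.814% fell. The fall was in Slc2a1, a glucose transporter gene that is also a brain endothelial marker, with 703 ± 31.4 CPM in the tdTom+ fraction against 916 ± 49.3 CPM in the tdTom- fraction (SD, n = 3, edgeR adjusted p = 0.0191). Its call ended without tdTom+ replicate 1, tdTom- replicate 2 or tdTom- replicate 3 (adjusted p from 0.0673 to 0.0949). The list's median log2 fold change was 0.15, against 0 over all tested genes. Next by p were Ldha at 0.23 ± 0.06 and Hif3a at -0.52 ± 0.19 (SE; adjusted p in edgeR, 0.107 and 0.31), and neither passed. Vegfa, the gene of the vascular growth factor, had a log2 fold change of 0.09 ± 0.18 and did not pass (SE; adjusted p in edgeR, 0.923).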

How the data were processed

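RNA from sorted cells was amplified with the SMART-seq v4 kit and made into libraries with Nextera XT, per the labels' protocols. Per the submitters' processing notes, the mm10 build was used with featureCounts 1.4.6, STAR 2.5.2b, DESeq2, Trimmomatic 0.36.4 and Picard 2.7.1.1, whose order is not stated. Whether counting used strand is not given there. The authors deposited 1 table of unnormalized read counts per gene and library, with their own log2 fold change and adjusted p-value (tdTom- over tdTom+) in the same table. Its 6 columns of normalized values were not used.

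Groups came from the sample titles. Nothing says that the libraries are of separate embryos, so p-values measure the spread between these samples. The test was the robust quasi-likelihood F-test of edgeR 4.0.16 (R 4.3.3; TMM scaling; genes kept by filterByExpr at min.count 10; no block; Benjamini-Hochberg over 13142 genes; threshold 0.05), checked on simulated data. Fold changes are tdTom+ over tdTom-. The SE is the log2 fold change over the square root of F, and 95% intervals use the test's degrees of freedom. The biological coefficient of variation was 23.2%. A floor of 3 counts was 0.254 to 0.335 CPM and covers counting error only, since reads are not molecules. No pair of replicates looked like 1 library deposited again: the chi-square between them averaged 7.85 to 19.0 per gene. Lengths are those of the longest protein-coding transcript in GENCODE M21 (GRCm38), matched for 23075 of 23420 genes. Ratios were tested with scipy 1.17.1.

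The members and lists were chosen with earlier results of these data known. Named were all members, every gene of a related list that passed, and otherwise the 2 of smallest p. Other named genes (Apela, Calcr, Ackr3, Plau, Dll4, Angpt2, Cxcr4, Vegfa, Ldha, Hif3a, and those in the closing section) were chosen after their values were seen. Alternatives were RLE factors (DESeq2's size factors) or library totals for scaling, no filter or a minimum count of 30, DESeq2 1.42.0, limma-voom (limma 3.58.1), a replicate block, and leaving out each library.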

Additional observations from a re-analysis of the deposited data

How the results depend on the processing

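The count of 0 members called was the same under each alternative run: RLE factors, library totals, no filter, a stricter filter, DESeq2, limma-voom, the replicate block and leaving out each of the 6 libraries. The 1 member with groups that did not overlap was the same count with RLE factors and with library totals. Over the whole table, 208 genes passed, against 484 with DESeq2 and 62 to 189 when a library was left out, with 126 without tdTom+ replicate 1 and 82, 71 and 62 without tdTom- replicates 1, 2 and 3. Leaving out a library leaves fewer samples, and the cause of the larger DESeq2 count was not tested. Estimates near 0 changed sign when a library was left out, with log2 fold changes from -0.03 to 0.06 for Apln, -0.18 to 0.05 for Adm, -0.13 to 0.17 for Ramp3 and -0.30 to 0.20 for Plaur. Those of Aplnr, Calcrl, Ramp2, Esm1 and Kcne3 kept their sign in all alternatives run. Same-numbered libraries shared deviations from their group means at r = 0.112, 0.091 and 0.166 across genes, and libraries of different number at -0.163 to 0.063, so each library correlated best with its own number. Both libraries numbered 3 were also the Xist-positive ones. They held 12 (tdTom+) and 2 (tdTom-) counts of the Y-linked gene Ddx3y, against 1204 to 1537 in the others. This is a hint from the data of a shared source. Since the labels do not tie numbers to embryos, the fit without the block was kept. Its SE and p-values take no account of a shared source. With the replicate block 295 genes passed and Kcne3 stood at 0.27 (edgeR adjusted p = 0.273). Paired by number, the ratio of Calcrl to Ramp2 differed by 0.30 (exact sign-flip permutation p = 0.5). With 3 pairs that test cannot give a p under 0.05, so it decides nothing here. The 3 differences in ratio cannot depend on the length taken, since a gene's length is the same in every library and cancels. Depth limits Ramp1, with 0 to 12 counts, which reached an adjusted p of 0.658 without the filter.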

Other observations

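Genes of the related lists with few counts are given as values. Serpinb2, the gene of an inhibitor of urokinase, had 10, 11 and 44 counts in the tdTom+ fraction against 0, 4 and 0 in the tdTom- fraction. It was too sparse to test. Calca, the gene of calcitonin and calcitonin gene-related peptide, had 3, 9 and 0 counts in the tdTom+ fraction against 31, 18 and 19 in the tdTom- fraction. Its groups did not overlap, as in 17.2% of all tested genes, and its log2 fold change of -2.57 ± 1.05 did not pass (SE, edgeR adjusted p = 0.391). Serpine2, the gene of another protease inhibitor, averaged 34.1 ± 4.37 CPM in the tdTom+ fraction against 57.7 ± 9.35 CPM in the tdTom- fraction (SD, n = 3), and did not pass (edgeR adjusted p = 0.0536).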
